A study of Danio rerio with 12 samples.

Results

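Homeobox transcription factor genes outside the hox clusters were examined at their promoters in wildtype and supt16h mutant zebrafish embryos; Supt16h is the large subunit of the histone chaperone FACT. Members were chosen by gene symbol alone, as the dlx, lhx, nkx, pax, sine oculis type (six1a to six9), irx, msx, otx, emx, gsx, vsx, rx, dbx, barhl, bsx, meis2, meis3, pbx, tlx, gbx, evx and phox2 genes. Of 113 matching symbols 2, nkx2.3 and nkx2.5, were left out by the rule, which leaves 111 genes among 15188 named genes with a tested window. The rule also asked for engrailed genes by another spelling than the one in the table, so these were not analysed here. Where a gene had several annotated start sites, the window with the highest mean signal stood for it, and all 111 genes passed the filter on weak windows, a mean log2 signal of at least 4. The name of the group holds loosely for the paired box genes, since Pax1 and Pax9 proteins carry a paired domain without a homeodomain and Pax2 and Pax5 keep only part of it.

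Homeodomain proteins bind short AT-rich DNA sites and assign positional and cellular identity. In the embryonic nervous system, combinations of them divide the neural plate into brain regions and the neural tube into progenitor domains, and other sets are switched on as neurons leave the cell cycle and take on a type. The Pbx and Meis proteins, of the TALE class, bind DNA together with Hox and other homeodomain partners.

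The samples were supt16h-/- embryos and wildtype siblings, collected whole at 32 hours post fertilization and deyolked, with 50000 cells per library. Each group held 6 libraries from 3 biological replicates in 2 technical repeats each. The series text speaks of 40 embryos without saying how they were divided over libraries, and no transgene or other allele is named. Accessibility was read by ATAC-seq, in which a transposase inserts adapters into open chromatin, as normalized log2 signal in windows of 4000 bp around start sites on GRCz10. All windows are equally long, so levels can be compared between genes. Read depth is unknown, because the table gives no counts. Library medians were 7.318 to 7.357 in the mutants and 7.363 to 7.396 in the wildtype, so every mutant median lay below every wildtype median. Technical repeats were averaged, an SD is over the 3 biological replicates of a group, and a difference is mutant minus wildtype on the log2 scale with the SE from limma. The transformation is not named, and differences on its scale were smaller at weak windows, so they may understate the change there. At stronger windows they may do so too, since the authors' deposited fold changes were larger in size at called members. Every direction rests on how the columns are named and would turn if the names were exchanged.

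Homeobox promoters covered a wide range of openness. The mean log2 signal ran from 5.46 at pax4, a factor of endocrine pancreas, to 10.46 at pbx3b, with a median of 7.73 against 7.40 over all tested windows. The most open windows were those of pbx3b, pbx4 (10.05) and meis2a (10.00), followed by gbx1 (9.81) and dbx1a (9.66). The least open after pax4 were nkx6.3 (5.91) and phox2ba (6.14), whose window overlaps one of exosc9. At member windows the median SD was 0.0804 between biological replicates of a group and 0.107 between technical repeats. The first was taken on means of 2 technical repeats and the second on single libraries, so they are unlike measures. Technical spread is also part of the first.

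Between the groups, 8 of 111 homeobox promoters were higher in the mutants and 9 were lower in limma at an adjusted p of 0.05. The 8 that rose were pbx4, six3b, irx1b, nkx2.2a, msx1a, irx3a, irx3b and meis2a, and the 9 that fell were emx3, tlx3b, nkx3.3, dlx4b, pax5, lhx6, bsx, gbx2 and lhx9. Over all 15431 tested windows 8.02% were called higher and 3.58% lower, 11.6% in either direction. Among the members the shares were 7.21% and 8.11%. The median difference was -0.05 over members and -0.02 over all windows. Below 0 lay 73 members (65.8%, against 54.7% of all windows). At 17 members all mutant replicates lay above all wildtype replicates and at 33 all lay below, shares of 15.3% and 29.7% against 15.5% and 14% over all windows (29.6% in either direction). These were whole embryos, so fewer cells of a type and less open chromatin per cell cannot be told apart.

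The replicate numbers paired the groups, and with the number as a block 11 members were higher and 24 lower, where 14% and 9.47% of all windows were. All 17 calls were kept, with a limma adjusted p of 0.014 or less. Another 18 were added, among them dbx1b, nkx2.4b and dlx4a as lower (limma adjusted p = 0.0292, 0.0492 and 0.0393). With a replicate left out the number of calls changed by more than 1.5 times in 5 of 6 such fits, to 8 without mutant replicate 2 or 3 or wildtype replicate 1, to 10 without wildtype replicate 2 and to 7 without wildtype replicate 3. Calls over all windows fell in these 5 fits too, from 1790 to 1371, 1116, 1056, 1181 and 1134 in the same order. The calls of emx3, nkx3.3, pbx4 and six3b held in all 6 of these fits. Like the main fit, these fits used no block, so they left the pairing aside.

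**Figure D1:**
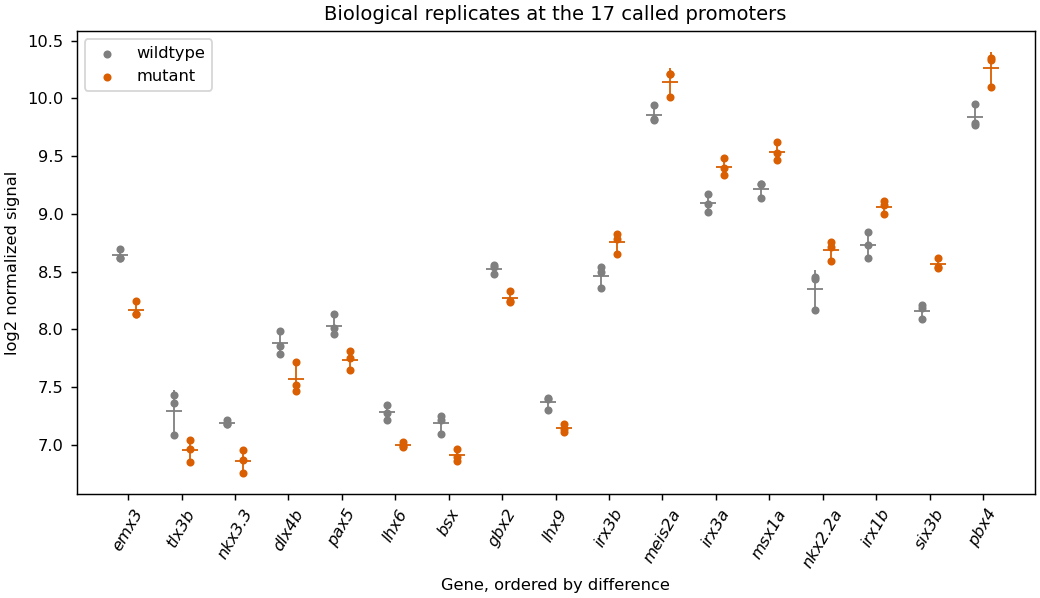
log2 normalized signal (vertical axis) of the 17 called homeobox promoters (horizontal axis), ordered by difference. Points are the 3 biological replicates of wildtype (grey) and mutant (orange), dashes their means and bars the SD; from emx3 to lhx9 all mutant points lie below all wildtype points, and from irx3b to pbx4 all lie above.

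The raised members had a mean log2 signal of 8.36 to 10.05 and the lowered ones of 7.03 to 8.41. Of the 52 members with a signal between 7 and 8, none was higher and 7 were lower (13.5%), against 3.93% and 6.86% of all windows of that level. Of the 27 members between 8 and 9, 4 were higher (14.8%, against 12.4% of all windows of that level) and 2 were lower (7.41%, against 3.71%). Of the 12 between 9 and 10, 3 were higher (25%, against 24%) and none was lower (1.29% of all windows). None of the 16 between 6 and 7 was called, where 2.23% of all windows were higher and 4% lower. Of the 2 above 10, 1 was higher, where 42.2% of all windows were. Regressed on the mean of all replicates, the mutant replicates had slopes of 0.994, 1.04 and 1.04 and the wildtype replicates of 0.951, 0.988 and 0.988. The part of this slope in the differences was not tested beyond the fits that follow. After cyclic loess normalization, which removes such trends, 2 members were higher and 9 lower, where 6.56% and 4.57% of all windows were. Quantile normalization left 2 higher (6.31% of all windows) and 10 lower (5%). With library medians set equal, 10 members were higher and 7 lower, where 1593 and 375 of all windows were. The difference then changed sign at 11 members, and its median was -0.02 over members and 0.01 over all windows. After cyclic loess normalization pbx4 and six3b remained higher and emx3, nkx3.3, dlx4b, pax5, lhx6 and gbx2 lower, and dbx1b, phox2a and pbx3b were newly called lower. With the library slope as a covariate none was called higher (2.2% of all windows) and only emx3 lower (0.661%). Every mutant slope lay above every wildtype slope, so this fit can hardly separate slope from group. Not all differences shrank in it. six3b and irx1b lay at 0.42 and 0.43, against 0.40 and 0.34 in the main fit (limma adjusted p = 0.0567 and 0.057 with the covariate). pbx4 and meis2a lay at 0.21 and 0.12, against 0.42 and 0.28 (0.287 and 0.556). None of the 17 called members changed sign in any of the 14 other fits.

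**Figure D2:**
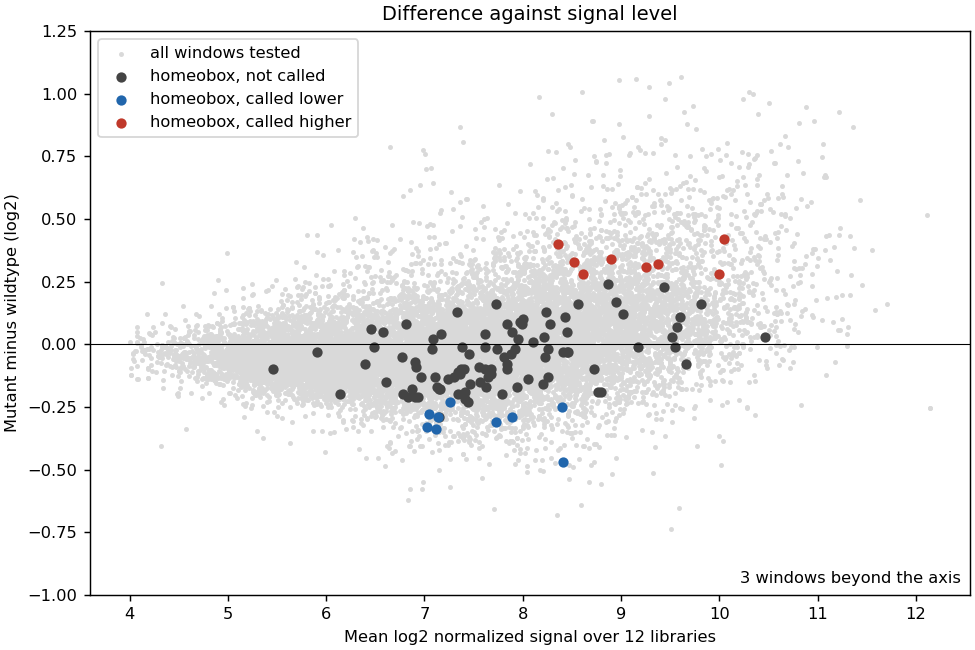
Difference between mutant and wildtype (vertical axis, log2) against the mean log2 signal over 12 libraries (horizontal axis) for all tested windows (light grey, with 3 windows beyond the axis) and the 111 homeobox promoters (dark grey, blue where called lower, red where called higher). The raised promoters sit at signals of 8.36 and above, and the lowered ones at 7.03 to 8.41.

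Among the 8 pbx, meis2 and meis3 genes, TALE partners of Hox proteins, 2 rose and none fell, and the median difference was 0.08. The median signal of these genes was 9.56, and the share of 25% called higher lay near the 24% of all windows between 9 and 10. Related TALE genes outside the rule were read with the cofactors and the other homeobox genes below. Of those, pknox2 fell (-0.23), and meis1a, meis1b and pknox1.1 did not pass (-0.01, 0.16 and 0.15). Neither did tgif1 (0.20), mkxa and mkxb (-0.18 each). With the replicate block tgif1 was called higher (limma adjusted p = 0.0112), where 14% of all windows were. pbx4, the main pbx gene of the early zebrafish embryo, gave the largest rise of all members (chromosome 3, 52743299 to 52747299). Its log2 signal was 10.10, 10.35 and 10.33 in the mutants and 9.77, 9.95 and 9.79 in the wildtype. The groups did not overlap, and the difference of 0.42 ± 0.09 (SE, 1.34-fold, limma adjusted p = 0.00371) was 0.38 to 0.50 with any replicate left out and 0.22 after cyclic loess normalization (adjusted p = 0.0425). meis2a (chromosome 17, 52734677 to 52738677), a partner of Pbx and Hox proteins, stood at 10.01, 10.21 and 10.21 in the mutants and 9.81, 9.94 and 9.82 in the wildtype. Its rise of 0.28 ± 0.08 (adjusted p = 0.0306) shrank to 0.09 after cyclic loess normalization (adjusted p = 0.408). It was called with mutant replicate 1 left out, while leaving out any of the other 5 replicates ended the call (adjusted p = 0.0512 to 0.123). pbx3b, the most open member, did not differ beyond its spread, at 10.48 ± 0.08 against 10.44 ± 0.10 (SD, n = 3 each, 95% interval of the difference -0.13 to 0.20). It was called lower after cyclic loess (-0.21, adjusted p = 0.0325) and quantile normalization (-0.24, 0.0157).

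Of the 10 genes that mark brain regions, 3 fell (30%) and none rose, against 3.58% lower and 8.02% higher over all windows. emx3, a factor of the dorsal forebrain, gave the largest fall of all members (chromosome 14, 26076939 to 26080939). Its log2 signal was 8.13, 8.25 and 8.13 in the mutants and 8.70, 8.62 and 8.62 in the wildtype. The lowest wildtype value lay well above the highest mutant value, and the difference was -0.47 ± 0.08 (SE, 1.39-fold lower, adjusted p = 0.00048). It stayed between -0.51 and -0.45 with any replicate left out, and it was called in all 14 other fits. The paralogs emx2 and emx1 lay at -0.17 and -0.12 (adjusted p = 0.151 and 0.384), with all mutant replicates below all wildtype replicates in each.

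gbx2, which sets the hindbrain side of the boundary with the midbrain, fell (chromosome 6, 15902246 to 15906246), from 8.48, 8.56 and 8.54 in the wildtype to 8.24, 8.33 and 8.25 in the mutants. The difference was -0.25 ± 0.07 (SE, adjusted p = 0.0341). It stayed called with mutant replicate 2 left out, while leaving out any of the other 5 replicates (adjusted p = 0.0504 to 0.133) or setting library medians equal (0.0536) ended the call. gbx1, the more open paralog, went the other way without passing (0.16 ± 0.08, adjusted p = 0.231), although all its mutant replicates lay above the wildtype. It lay below 0 after cyclic loess and quantile normalization. bsx, of hypothalamus and pineal organ, fell by 0.28 ± 0.07 (chromosome 10, 30004230 to 30008230, adjusted p = 0.0203). Its values were 6.97, 6.86 and 6.90 in the mutants and 7.22, 7.10 and 7.25 in the wildtype. Dropping mutant replicate 2 (0.0613) or 3 (0.0619) or wildtype replicate 1 (0.0885) or 3 (0.0966) ended the call, as did cyclic loess normalization (0.0511). otx2, of forebrain and midbrain, lay at -0.13 ± 0.08 (adjusted p = 0.313).

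Of the 18 genes of the eye and placodes, none fell (3.58% of all windows) and 1 rose (5.56%, against 8.02% of all windows). It was six3b (chromosome 12, 25507390 to 25511390), needed with six3a for the forebrain and eyes. Its log2 signal was 8.54, 8.62 and 8.53 in the mutants and 8.21, 8.19 and 8.09 in the wildtype. The groups did not overlap, with a difference of 0.40 ± 0.08 (SE, 1.32-fold, adjusted p = 0.00194), and 0.36 after cyclic loess normalization (adjusted p = 0.00614). The retinal factors rx2 and rx3 had all mutant replicates below all wildtype replicates, at -0.29 ± 0.10 and -0.22 ± 0.08, without passing (adjusted p = 0.0625 and 0.0879). With the replicate block rx2, rx3, vsx1 and six6a were called lower (limma adjusted p = 0.00489, 0.0251, 0.0329 and 0.0464), where 9.47% of all windows were. rx1, the most open of its family, differed by 0.02 ± 0.08 (95% interval -0.14 to 0.18).

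Among the 29 genes of the dbx, gsx, irx and nkx families, grouped here as neural tube domains, 4 rose and 1 fell. Families were taken whole, so the group is not limited to genes of the neural tube. Its shares were 13.8% and 3.45%, against 8.02% and 3.58% of all windows. The Iroquois genes, which prepattern the neural plate, made up 3 of the 4 that rose. That was 27.3% of 11, at a median signal of 8.61, against 12.4% of all windows between 8 and 9. Of all windows between 9 and 10, 24% were higher. irx1b (chromosome 19, 28544432 to 28548432) stood at 9.08, 9.0 and 9.11 in the mutants and 8.84, 8.62 and 8.73 in the wildtype, a rise of 0.34 ± 0.08 (SE, 1.26-fold, adjusted p = 0.0104) that was not called without wildtype replicate 2 (0.0797). irx3a (chromosome 7, 35768014 to 35772014) stood at 9.34, 9.48 and 9.40 against 9.17, 9.09 and 9.02, a rise of 0.31 ± 0.08 (adjusted p = 0.0142). Dropping mutant replicate 2 (0.0606) or wildtype replicate 2 (0.0581) or 3 (0.0837) ended this call. irx3b (chromosome 25, 35899116 to 35903116) stood at 8.65, 8.83 and 8.78 against 8.50, 8.54 and 8.36, a rise of 0.28 ± 0.08 (adjusted p = 0.0297). It missed the threshold once mutant replicate 2 (0.106) or 3 (0.0891) or wildtype replicate 1 (0.0735) or 3 (0.151) was dropped. No mutant value of these 3 genes fell within the wildtype range. With the replicate block irx1a, irx5a and irx2a were called as well (limma adjusted p = 0.0121, 0.0226 and 0.0473), so that 6 of 11 Iroquois genes were higher. Over all windows 14% were higher with the block. After cyclic loess normalization none of the 11 was called, where 6.56% of all windows were higher and 4.57% lower. The family median was then 0.08 in place of 0.17.

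nkx2.2a, of the most ventral neural progenitors, rose at one of its 2 start sites (chromosome 17, 42776227 to 42780227). The values there were 8.76, 8.59 and 8.71 in the mutants and 8.44, 8.17 and 8.45 in the wildtype, a difference of 0.33 ± 0.09 (SE, adjusted p = 0.0214). The other start site (42781560 to 42785560) was less open, at a mean of 7.22, and differed by -0.02 ± 0.08 (95% interval -0.19 to 0.14). The call ended when mutant replicate 1 (0.0553) or 3 (0.0658) or wildtype replicate 2 (0.151) was dropped, and with cyclic loess normalization (0.0775). nkx3.3, an NK factor of the bagpipe class, fell (chromosome 13, 40273980 to 40277980), from 7.22, 7.18 and 7.18 to 6.96, 6.76 and 6.87. The difference was -0.33 ± 0.08 (1.26-fold lower, adjusted p = 0.00698), and all mutant replicates lay below all wildtype replicates. dbx1a, of interneuron progenitors, and nkx6.2, the most open nkx gene, did not pass (-0.08 ± 0.09 and -0.01 ± 0.10), and neither did gsx1 (-0.10 ± 0.08).

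Of the 12 paired box genes 1 fell (8.33%, against 3.58% of all windows) and none rose (8.02% of all windows). pax5, of the boundary between midbrain and hindbrain (chromosome 1, 21030884 to 21034884), had a log2 signal of 7.75, 7.65 and 7.81 in the mutants and 8.13, 7.96 and 8.01 in the wildtype. The groups did not overlap, with a difference of -0.29 ± 0.08 (SE, adjusted p = 0.0206). It missed the threshold when mutant replicate 2 (0.0774) or wildtype replicate 1 (0.117) or 3 (0.0531) was dropped. pax2a, of the same boundary, differed by 0.01 ± 0.09 (adjusted p = 0.971), and pax3a, of dorsal neural tube and neural crest and the most open pax gene, by 0.03 ± 0.08 (adjusted p = 0.842). pax7a lay at -0.20 and was called lower with the replicate block (limma adjusted p = 0.04). It was also called with 12 libraries kept apart (limma adjusted p = 0.0219), but that fit counts technical repeats as independent samples.

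In the dlx and msx families, which act in forebrain, pharyngeal arches and fin fold, 1 of 13 genes rose and 1 fell. These were shares of 7.69% each, against 8.02% higher and 3.58% lower over all windows. dlx4b, which acts with dlx3b in the otic placode (chromosome 12, 5691772 to 5695772), stood at 7.72, 7.52 and 7.47 in the mutants and 7.86, 7.79 and 7.99 in the wildtype. Its fall of 0.31 ± 0.08 (SE, adjusted p = 0.0227) missed the threshold when mutant replicate 2 (0.0593) or 3 (0.107) or wildtype replicate 1 (0.0711) or 3 (0.119) was dropped. Of the 8 dlx genes, 7 lay below 0, with dlx2b at 0.05 as the exception. Among all windows with a signal between 7 and 8, 57.9% lay below 0. dlx1a, the most open of them, lay at -0.14 ± 0.07 (adjusted p = 0.264). msx1a, of dorsal neural tube and neural crest (chromosome 14, 239572 to 243572), stood at 9.47, 9.62 and 9.53 against 9.26, 9.14 and 9.26, a rise of 0.32 ± 0.08 (adjusted p = 0.0129). Its call was lost without mutant replicate 2 (0.0579) or wildtype replicate 2 (0.0874), and after cyclic loess normalization (0.104). msx1b, of similar openness, lay at 0.11 ± 0.08 (adjusted p = 0.405).

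Factors of neuron identity lay on the lower side almost throughout. Of these 21 lhx, barhl, tlx, evx and phox2 genes, 3 fell, none rose and 18 did not pass, and 20 had a difference below 0. The exception was lhx8a at 0.08. All mutant replicates lay below all wildtype replicates at 12 of the 21 (57.1%), while at no gene did all lie above. Among all windows with a signal between 7 and 8, where the median of these genes lies (7.12), 18.8% were lower in this way. Of the same windows 57.9% had a difference below 0, and 68.7% of those between 6 and 7 did. Of all 52 members between 7 and 8, 42 lay below 0, as did 53 of 62 homeobox genes of other families. All mutant replicates lay below all wildtype replicates at 38.5% of these 52 members and at 45.2% of these 62 genes. The 3 called lower were 14.3% of the class, against 6.86% of all windows between 7 and 8. The median difference of the 21 genes was -0.18, and -0.13 after cyclic loess normalization with 19 genes below 0, and 17 to 20 lay below 0 in the other scalings. With the replicate block 10 of the 21 were called lower, where 9.47% of all windows were. The count of 3 became 6 without mutant replicate 1, 2 without wildtype replicate 2, 1 without mutant replicate 2, and 0 without mutant replicate 3 or wildtype replicate 1 or 3. Over all windows the 552 called lower became 636, 298, 374, 280, 276 and 248 in the same order.

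tlx3b, of excitatory dorsal and sensory neurons, had the largest fall among them (chromosome 10, 22085448 to 22089448). Its values were 7.04, 6.85 and 6.97 in the mutants and 7.36, 7.09 and 7.43 in the wildtype, with wildtype replicate 2 close to the mutant range. The difference was -0.34 ± 0.09 (SE, adjusted p = 0.0205). Dropping mutant replicate 2 (0.0645) or 3 (0.0514) or wildtype replicate 1 (0.109) or 3 (0.111) ended the call of tlx3b, as did cyclic loess normalization (0.0554). lhx6, which in mouse marks interneurons of the ventral forebrain (chromosome 10, 9537143 to 9541143), stood at 7.03, 6.98 and 6.99 against 7.28, 7.22 and 7.35, a difference of -0.29 ± 0.07 (adjusted p = 0.0142). This call ended when mutant replicate 3 (0.0504) or wildtype replicate 1 (0.0561) or 3 (0.0774) was dropped. lhx9, of forebrain and dorsal interneurons (chromosome 22, 23236719 to 23240719), stood at 7.18, 7.14 and 7.11 against 7.40, 7.41 and 7.3, a difference of -0.23 ± 0.07 (adjusted p = 0.0482). It was called with mutant replicate 1 left out (0.0495), while leaving out any of the other 5 replicates (0.0628 to 0.165), cyclic loess normalization (0.1) or equal library medians (0.085) ended the call. At all 3 genes the groups were apart.

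The other neuron factors gave smaller differences. phox2a, of autonomic and hindbrain visceral neurons, stood at 8.70 ± 0.03 against 8.89 ± 0.10 (SD, n = 3 each, adjusted p = 0.128), and was called lower after cyclic loess normalization (-0.27, adjusted p = 0.0232). The interneuron gene barhl2 lay at -0.11 ± 0.07 (SE, adjusted p = 0.348), evx1, of V0 interneurons, at -0.09 ± 0.08 (adjusted p = 0.5) and lhx2b, of forebrain and eye, at -0.03 ± 0.08 (adjusted p = 0.88). Of this class tlx2, tlx1, evx2, barhl1a, lhx4, phox2a and phox2ba were called lower with the replicate block beside the 3 named above (limma adjusted p = 0.0198, 0.0492, 0.02, 0.0336, 0.0397, 0.0358 and 0.0245). The phox2ba window overlaps one of exosc9, so its signal cannot be assigned to phox2ba alone.

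**Figure D3:**
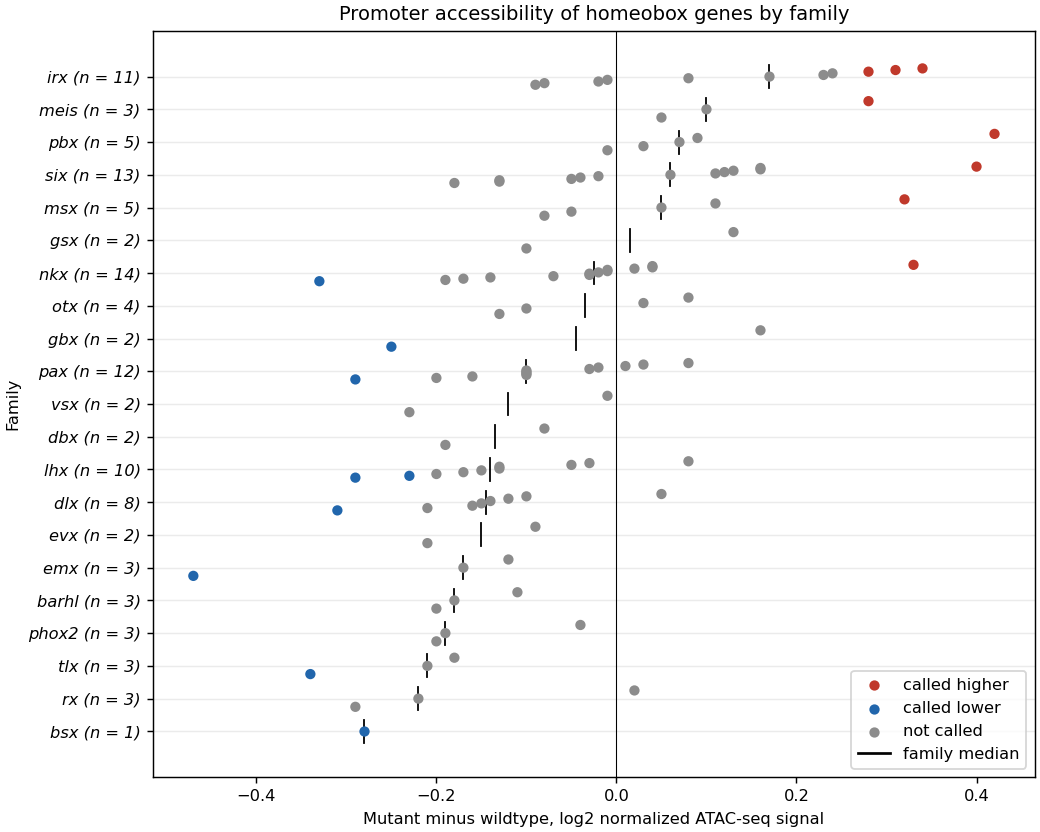
Difference between mutant and wildtype log2 signal (horizontal axis) for each of the 111 homeobox promoters by family (vertical axis, n is the number of genes). Points are genes, red where called higher and blue where called lower, and vertical dashes are family medians, from -0.28 for bsx to 0.17 for the Iroquois genes.

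Several homeobox genes sit in clusters. Each of 4 Iroquois clusters held a gene of the irx1 or irx3 kind that was higher in all mutant replicates, and an irx4, irx5b or irx6a gene that lay near or below 0. On chromosome 7 irx3a and irx5a lay at 0.31 and 0.23 and irx6a at -0.08. On chromosome 25 irx3b lay at 0.28 and irx5b at -0.09. On chromosome 16 irx1a and irx2a lay at 0.24 and 0.17 and irx4a at -0.02, and on chromosome 19 irx1b at 0.34 and irx4b at -0.01. The genes near 0 were the less open ones, with mean signals of 6.49 to 7.84, while the others stood at 8.61 to 9.44.

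The genes six2 and six3 lie side by side and had differences of opposite sign, but only six3b was called. six2b, six2a and six3a did not pass (limma adjusted p = 0.394, 0.374 and 0.299), and their 95% intervals included 0. six3b lay at 0.40 and six2b, 11.3 kb away, at -0.13. The log2 gap between their windows was 1.2 to 1.45 in the mutants and 0.77 to 0.82 in the wildtype, without overlap. six3a lay at 0.16 and six2a, 28.7 kb away, at -0.13. Their gap was 0.95 to 1.13 in the mutants and 0.62 to 0.87 in the wildtype, again without overlap. Over all 20 neighbouring pairs of a family within 1000 kb, the gaps of the groups overlapped in 11 and did not overlap in 9. Gaps of 3 against 3 that do not overlap always give a two-sided exact permutation p of 0.1, the smallest possible (Benjamini-Hochberg adjusted p = 0.222). For these 9 the p therefore only restates the lack of overlap. The permutation left the pairing of replicates aside, and some genes were part of more than 1 pair. In all 9 the more open gene had the higher difference. The same count over neighbouring windows of other genes was not made. Over all windows the median difference also rose with signal. It was -0.06 between 6 and 7, -0.03 between 7 and 8, 0.04 between 8 and 9 and 0.11 between 9 and 10. The six4a window, among these pairs, overlaps one of mnat1. dlx1a and dlx2a, 12.6 kb apart, lay at -0.14 and -0.15, a gap change of 0.01 (exact permutation p = 1).

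**Figure D4:**
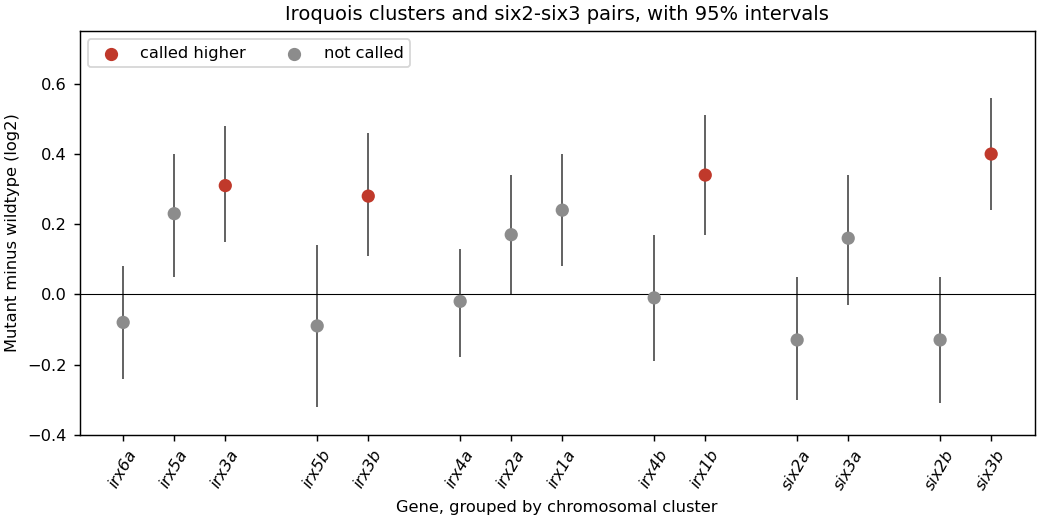
Difference between mutant and wildtype log2 signal (vertical axis) at 4 Iroquois clusters and at the six2 and six3 neighbours (horizontal axis, clusters set apart by spaces), with 95% intervals from limma. Red points, irx3a, irx3b, irx1b and six3b, were called higher, and the irx4, irx5b, irx6a and six2 genes lie at or below 0.

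The teleost genome duplication left many of these genes as a and b copies, and 28 such pairs were measured. Both copies were called only for irx3a and irx3b, 1 copy was called in 6 pairs, and neither in 21. No pair had copies called in opposite directions, and the copies had the same sign in 19. Both copies were called in 3 pairs with the replicate block, with irx1a and irx1b higher and dlx4a and dlx4b lower as the added pairs, 1 copy was called in 11 and neither in 14. The median gap between the differences of the copies was 0.11. The widest was that of nkx2.2a at 0.33 and nkx2.2b at -0.02, followed by irx5a and irx5b (0.23 and -0.09) and by pax7a and pax7b (-0.20 and 0.08). Whether the copies differ was not tested, and the same counts over copies of other genes were not made.

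Homeobox genes outside the rule and cofactors of homeodomain proteins were read from the same fit. Of 62 measured homeobox genes of other families, 18 fell, 1 rose and 43 did not pass, with a median of -0.14. Over all windows 3.58% were lower and 8.02% higher. Between 7 and 8, where the median signal of these genes lies (7.27), 6.86% of all windows were lower and 3.93% higher. Among the 62 genes the shares were 29% lower and 1.61% higher. Those that fell included prrx1b, of limb and craniofacial mesenchyme (-0.40 ± 0.08, SE, adjusted p = 0.00215), hmx2 and hmx3a, of the inner ear and lateral line (-0.37 and -0.31), gsc, of the organizer and head mesenchyme (-0.37), and the motor neuron gene mnx1 (-0.30). The gene that rose was onecutl (0.25 ± 0.08, adjusted p = 0.0496). With the replicate block 27 were lower and 2 higher, where 9.47% and 14% of all windows were. After cyclic loess normalization 13 were lower and none higher, where 4.57% and 6.56% of all windows were. The 19 called became 12 without mutant replicate 2, 6 without mutant replicate 3 or wildtype replicate 1, 9 without wildtype replicate 2 and 8 without wildtype replicate 3. Of 27 measured cofactors, ldb1b, an adapter of LIM homeodomain proteins, rose (0.35 ± 0.08, adjusted p = 0.00786), lmo1 and pknox2 fell (-0.23 each, adjusted p = 0.0493 each) and 24 did not pass. The share of cofactors called was 11.1%, against 11.6% of all windows. With the replicate block 4 cofactors were higher and 5 lower (14% and 9.47% of all windows). After cyclic loess normalization 1 was higher and 4 lower (6.56% and 4.57% of all windows). The 3 called became 5 without mutant replicate 1, 1 without mutant replicate 3 or wildtype replicate 1 or 2, and 0 without wildtype replicate 3. Over all windows the 1790 called became 2223, 1371 and 1116 without mutant replicates 1, 2 and 3. They became 1056, 1181 and 1134 without wildtype replicates 1, 2 and 3.

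Markers of cell states moved between the groups as well. Over all windows 8.02% were called higher and 3.58% lower, and 14% and 9.47% with the replicate block. Of 9 markers of proliferating cells 7 rose and none fell, and their mean log2 signal was 9.12 to 9.19 in mutant replicates and 8.55 to 8.67 in wildtype replicates. Of 7 measured markers of neural progenitors 4 rose and 2 fell, and their mean signal was 8.78 to 8.90 against 8.47 to 8.60. Of 10 markers of differentiated neurons 2 fell and none rose, at 7.85 to 7.93 against 7.99 to 8.09, and 4 were lower with the replicate block. No marker of skeletal muscle (8), epidermis (7) or blood (7) was called, and the ranges of their mean signal overlapped between the groups. All 8 muscle markers lay above 0, but without mutant replicate 2, or with the slope covariate, 4 lay above and 4 below. Under the replicate block mylpfa of muscle (0.25, limma adjusted p = 0.0386), lcp1 of blood (0.20, 0.0117) and mki67 of proliferating cells (0.22, 0.0158) were called higher, and her4.2 of neural progenitors lower (-0.42, 0.000371). None of the markers was at 0. Their part in the differences at homeobox promoters was not tested.

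In the authors' deposited table, a total of 31 of the 111 homeobox promoters had an adjusted p under 0.05, 10 of them higher and 21 lower by the library columns. Over all tested windows of the authors' deposited table, shares of 12.1% were higher and 7.17% lower in this sense. All 17 calls described above were among the 31, with the same direction by the columns. The log2 fold change of the authors' deposited table had the opposite sign to the library columns at all 111. Its size was larger than the column difference at all 17 called members, also at open windows. At pbx4 it was -0.545 against a column difference of 0.42, at msx1a -0.429 against 0.32 and at emx3 0.688 against -0.47. The reason was not tested.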

How the data were processed

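ATAC-seq libraries of whole zebrafish embryos (12, 6 per group) were read from a table of windows of 4000 bp around start sites. The submitters' processing notes name CASAVA 1.8, FastQC 0.11.2, HOMER 4.9 and GRCz10 (danRer10); for the aligner, read filters and any Tn5 shift the sources used here give nothing. The library columns hold normalized values that the authors deposited on a log2 scale without naming the transformation. The authors also deposited p-values, raw and adjusted, with no test named. Of 16555 entries, 15674 distinct windows remained, and 548 of 567 unnamed entries were named through their accession. Windows with a mean of at least 4 were tested (15431). Columns name group, biological and technical number, and technical repeats were averaged. Replicates are called biological in the series text alone, and nothing says whether they came from separate clutches, so p-values measure the spread between these samples.

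Groups (3 against 3) were compared with limma 3.58.1 in R 4.3.3 (mean-variance trend, robust), and p-values were adjusted over all windows by Benjamini-Hochberg, with a threshold of 0.05; the fit was tested on simulated data. Same-numbered replicates of the groups deviated together (correlations of 0.461, 0.513 and 0.534 over windows), so the numbers, taken from the columns, pair the samples. Only the fit with the replicate block used this pairing. The main fit and the fits with a replicate left out did not. Named genes were the called members with separate groups, up to 15 in each direction, and the most open member of each family; further genes were named after their values were seen. Members, lists, families and tests were chosen with earlier results of these data known. Promoter sequences and motifs were not analysed here. Alternatives were 12 libraries kept apart, the replicate block, quantile and cyclic loess normalization, equal medians, a slope covariate, 2 other filters, another threshold, every window of a gene and leaving out each replicate. With 12 libraries kept apart, technical repeats were counted as independent samples, so the calls of that fit are no further support. Figures were drawn with matplotlib 3.10.9.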

Additional observations from a re-analysis of the deposited data

Results flagged for a closer look

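Among the 34 named genes, each tested for a far library in the 6 libraries of both groups (68 tests), 4 libraries stood apart from the other 5 of their group; chance flags about 1 in 20 such tests. At bsx, technical repeat 2 of wildtype replicate 2 had a log2 signal of 6.92 while the others lay between 7.18 and 7.29. At irx1b, technical repeat 2 of mutant replicate 2 stood at 8.85 and the others at 9.06 to 9.16. At lhx9, technical repeat 1 of mutant replicate 1 stood at 7.26 and the others at 7.09 to 7.15. At rx1, technical repeat 1 of mutant replicate 3 stood at 7.81 and the others at 7.95 to 8.03.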

How the results depend on the processing

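The 17 called members (8 higher, 9 lower) became 32 (22 lower) with 12 libraries kept apart, 35 (24 lower) with the replicate block, and 11 after cyclic loess normalization. They became 1 (0 higher, 1 lower) with the slope covariate and 4 (2 and 2) at an adjusted p of 0.01. Higher members numbered 2 after quantile and after cyclic loess normalization. Without 1 replicate there were 7 to 24 called members, 3 to 9 higher and 2 to 15 lower, the lower ones being 15 without mutant replicate 1. All 1790 called windows became 2969 with libraries apart, 3621 with the block, 442 with the slope covariate, 880 at 0.01 and 1056 to 2223 without 1 replicate. The fit with libraries apart counted technical repeats as independent samples. The median member difference stayed between -0.08 and -0.02. Called cofactors (3) became 6 with libraries apart, 9 with the block, 5 after quantile or cyclic loess normalization, 0 with the slope covariate, 1 without the level filter, 1 at 0.01 and 0 to 5 without 1 replicate. Called other homeobox genes (19) became 29 with the block, 1 with the slope covariate, 3 at 0.01 and 6 to 19 without 1 replicate. pbx3b, not called and at 0.03, turned to -0.24 after quantile and -0.21 after cyclic loess normalization. No other named gene was called in the opposite direction under any alternative. The replicate block ended no call among members, cofactors, other homeobox genes and markers. The cause of these shifts was not tested. Unknown depth limits what can be said of weak windows.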
